A study of Rattus norvegicus with 6 samples.

Results

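Scar-associated macrophage genes are genes by which the macrophages that gather along the scars of an injured liver are recognised. The 10 genes described here are Trem2, Gpnmb, Tyrobp, Cd9, Lpl, Cd68, Lyz2, Aif1, Csf1r and Msr1, taken by their symbol from a table of 19616 genes, and all 10 were found. In a healthy liver most macrophages are Kupffer cells, which live in the sinusoids, whereas injury draws in monocytes from the blood that mature into further macrophages. Some of these take up lipid and cell debris at the scar and carry the lipid receptor TREM2, the membrane glycoprotein GPNMB and the tetraspanin CD9. The other members mark either lipid handling, such as the lipase LPL, or macrophages in general, such as the growth factor receptor CSF1R and the lysosomal protein CD68.

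RNA was sequenced from the whole livers of 6 male SD rats, with 1 library per rat. The fibrosis group (FL, rats FL2, FL5 and FL12) had been injected intraperitoneally with carbon tetrachloride (CCl4), a solvent that injures hepatocytes, mixed with an equal volume of olive oil, at 2 mL/kg and 2 times a week for 5 weeks. The normal group (CL, rats CL5, CL6 and CL7) had received olive oil in the same volume. The age of the rats is not given in the sources used here, and the labels name separate rats, so the spread within a group is that between animals.

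Expression was deposited as FPKM, the fragments of a gene scaled to the length of its transcript and to the mapped fragments of the library, so levels of different genes can be set side by side per length. The sum of FPKM over all genes was 309425 to 340467 for CL rats and 272110 to 309226 for FL rats. Read counts were not used here. The most frequent low value of the 114 U6 small nuclear RNA genes, read as the worth of 1 fragment on these short genes, lay between 0.21 FPKM in CL5 and 0.32 FPKM in CL6. By this step the depth of the rats relative to CL5 was 0.656 in CL6, 0.84 in CL7, 0.677 in FL2, 0.75 in FL5 and 0.677 in FL12.

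Of the 10 genes, 9 were higher in the FL group and 0 lower. Trem2 and Gpnmb showed the largest increases, followed by Lyz2 and Lpl, while Tyrobp, Cd68, Cd9, Csf1r and Aif1 rose by between 2.10-fold (Aif1) and 3.23-fold (Cd68) and Msr1 did not pass the test. A gene was called higher or lower when limma, run on log2(FPKM + 0.1), gave an adjusted p under 0.05 for the difference between the groups and the change was 2-fold or more. Tested were the 14864 genes whose mean was 0.1 FPKM or more, all 10 members among them. Over these genes 9.29% were called higher (1381 genes) and 0.935% lower (139 genes), a split that became 453 and 231 genes with quantile normalization. All 3 FL rats lay above all 3 CL rats for 9 of the 10 members, and for 35.7% of all genes tested. The members and the lists below were chosen with earlier results of these data known. Their contrast with all genes is therefore description, not independent evidence. The median log2 fold change of the members was 1.65, against 0.29 for all genes tested. In whole liver, more cells of a type and more RNA per cell of that type cannot be told apart, nor can fewer cells and less RNA per cell.

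**Figure D1:**
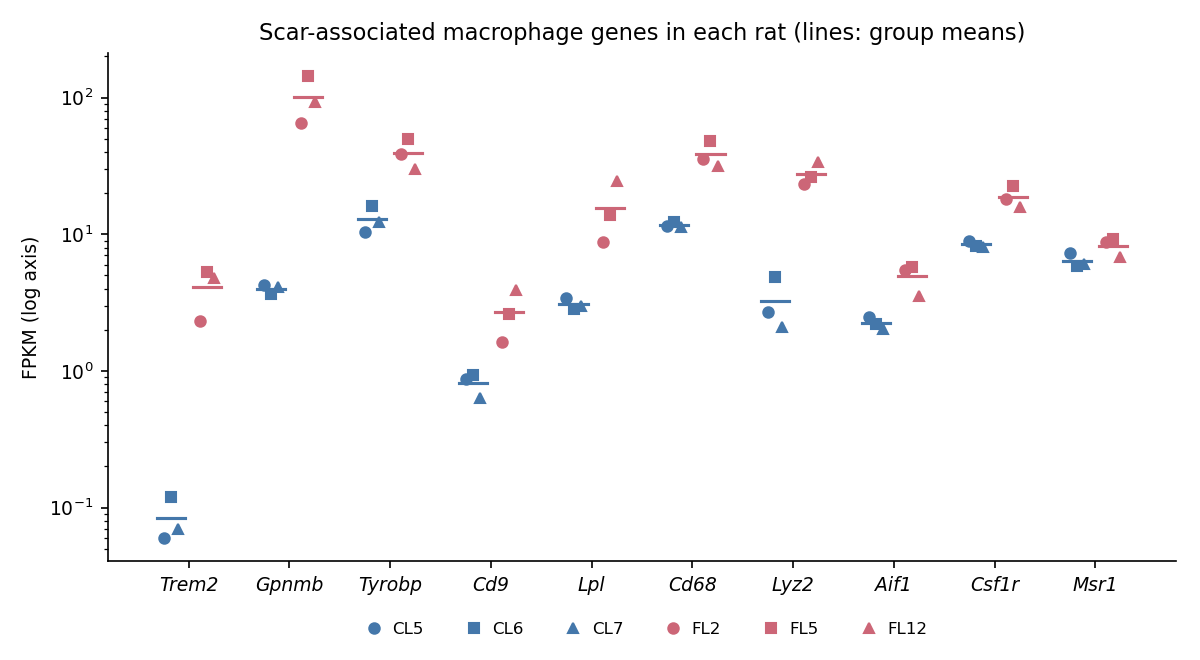
FPKM of the 10 scar-associated macrophage genes (log axis) in the 3 CL rats (blue) and the 3 FL rats (red), with a line at each group mean. The groups overlap for Msr1 alone, and Trem2 lies at or below 0.12 FPKM in the CL rats and at or above 2.30 FPKM in the FL rats.

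TREM2 is a surface receptor that binds lipids and lipoproteins, and it signals through the adaptor TYROBP (also called DAP12), which recruits the kinase SYK. Trem2 (ENSRNOG00000013578, chromosome 9) read 0.06, 0.12 and 0.07 FPKM in rats CL5, CL6 and CL7, against 2.30, 5.32 and 4.76 in FL2, FL5 and FL12. It was thus barely detected in the livers given oil and present in every fibrotic liver, with FL2 lowest and no overlap. The group means were 0.0833 ± 0.0321 and 4.13 ± 1.61 FPKM (SD, n = 3 rats each), a ratio of 49.5. The log2 fold change was 4.46 (standard error 0.35, limma adjusted p = 0.00102). Since the CL mean was below the filter of 0.1 FPKM, Trem2 entered this test only through its FL values. With no filter the limma adjusted p was 0.00395. The size of this change depended on the constant added before the logarithm, being 2.19 with 1 and 5.43 with 0.01.

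The adaptor was abundant already in the normal liver. Tyrobp (ENSRNOG00000020845, chromosome 1) read 10.40, 16.13 and 12.21 FPKM in rats CL5, CL6 and CL7, against 38.65, 49.91 and 30.04 in FL2, FL5 and FL12. Each FL rat lay above each CL rat, with FL5 highest and FL12 lowest of the FL group. The means were 12.9 ± 2.93 and 39.5 ± 9.96 FPKM, and the log2 fold change was 1.60 (standard error 0.22, limma adjusted p = 0.00491). Receptor and adaptor therefore differed in scale, since the mean of Tyrobp was far above that of Trem2 in both groups.

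Around this pair, 15 genes were listed as other adaptors, kinases, phosphatases and receptors coupled to TYROBP, lipoprotein ligands and the proteases that shed TREM2. Of the 14 tested, 6 were called higher, beside 9.29% of all genes, and 0 lower (0 lower also at an unadjusted p under 0.05 in limma), and the median lay 0.73 above that of all genes, with 0.43 at a pseudocount of 1. The count of 6 was not steady, with 1 called with quantile normalization, 2 with a pseudocount of 1 and 3 with median scaling. The share of all genes called higher also fell in these settings, to 3.05%, 3.11% and 5.56%. Hcst, which encodes the sister adaptor DAP10, had the largest called increase of the list, from 0.753 ± 0.380 in CL to 2.88 ± 0.256 FPKM in FL (log2 fold change 1.91, standard error 0.33, limma adjusted p = 0.00967). Syk rose from 1.44 ± 0.206 in CL to 3.74 ± 0.819 FPKM in FL (log2 fold change 1.31, standard error 0.20, limma adjusted p = 0.00651). The smallest called increase was that of Card9, an adaptor downstream of SYK, with a log2 fold change of 1.12. Apoe, the apolipoprotein that TREM2 binds and a major hepatocyte product, read 3728, 4893 and 4001 FPKM in rats CL5, CL6 and CL7, against 4102, 3228 and 2915 in FL2, FL5 and FL12. The groups overlapped, and Apoe was not called (log2 fold change -0.31, standard error 0.40, limma adjusted p = 0.608).

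GPNMB is a transmembrane glycoprotein of lysosomes and the cell surface that macrophages make when their lysosomes are loaded. Gpnmb (ENSRNOG00000008816, chromosome 4) read 4.25, 3.65 and 4.11 FPKM in rats CL5, CL6 and CL7, against 64.72, 144.20 and 92.90 in FL2, FL5 and FL12. The CL rats were nearly alike, every FL rat was far above them, and FL5 was highest. The means were 4.0 ± 0.314 and 101 ± 40.3 FPKM, a ratio of 25.1. The log2 fold change of 4.54 (standard error 0.26, limma adjusted p = 0.000364) was higher than that of 99.9% of the genes tested. It lay close to that of Trem2, and which of the pair was larger varied. Trem2 led with a pseudocount of 0.01 (5.43 against 4.57) and without CL6 (4.59 against 4.48), while with a pseudocount of 1 both Gpnmb (4.27) and Lyz2 (2.80) lay above Trem2 (2.19). Its level moved from above 61.6% of the genes tested in the CL group to above 97.9% of them in the FL group.

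Genes related to GPNMB were listed as the MiT/TFE transcription factors, which drive lysosomal genes, the paralogue Pmel and the binding partners CD44 and syndecan 4. Of the 7 tested, 1 was called higher, which for so few genes is near the 9.29% of all genes, and 0 lower, with 1 lower at an unadjusted p under 0.05 in limma. The median lay 0.60 above that of all genes, but 0.06 with a pseudocount of 1 and 0.36 with quantile normalization. The called gene was Cd44, a hyaluronan receptor, which rose from 0.797 ± 0.261 in CL to 4.07 ± 0.999 FPKM in FL (log2 fold change 2.23, standard error 0.28, limma adjusted p = 0.00414). Mitf read 0.82, 0.88 and 0.81 FPKM in rats CL5, CL6 and CL7, against 1.06, 1.42 and 1.07 in FL2, FL5 and FL12. The FL rats lay above the CL rats, but the difference did not pass (log2 fold change 0.44, standard error 0.21, limma adjusted p = 0.166). Sdc4 (syndecan 4), named after its values were seen, was the gene lower at an unadjusted p. Its log2 fold change was -0.80 (standard error 0.15, limma adjusted p = 0.0119), which is under 2-fold. Without CL5 or without FL12, 2 genes of the list were called higher.

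LPL hydrolyses the triglycerides of lipoproteins and is made by macrophages that take up lipid. Lpl (ENSRNOG00000012181, chromosome 16) read 3.39, 2.86 and 3.00 FPKM in rats CL5, CL6 and CL7, against 8.73, 13.76 and 24.46 in FL2, FL5 and FL12. The groups did not overlap, and the FL rats were far apart, with the highest at 2.80 times the lowest. The means were 3.08 ± 0.275 and 15.7 ± 8.03 FPKM, and the log2 fold change was 2.18 (standard error 0.32, limma adjusted p = 0.00595).

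Genes that mature, anchor, activate or inhibit LPL were listed together with related lipases. Of the 12 found, 10 were tested, 1 was called higher, a share near the 9.29% of all genes, and 0 lower, while 4 were lower at an unadjusted p under 0.05 in limma. The median of the 10 lay -0.92 from that of all genes (-0.54 with quantile normalization), and 8 had a negative log2 fold change. The gene called higher was Vldlr, a lipoprotein receptor, which rose from 0.360 ± 0.0755 in CL to 1.46 ± 0.632 FPKM in FL (log2 fold change 1.68, standard error 0.35, limma adjusted p = 0.0164). Angptl4, an inhibitor of LPL, read 25.76, 33.62 and 21.06 FPKM in rats CL5, CL6 and CL7, against 45.12, 15.06 and 8.19 in FL2, FL5 and FL12. Its groups overlapped and it was not called (log2 fold change -0.57, standard error 0.53, limma adjusted p = 0.476). Gpihbp1, the protein that anchors LPL to capillaries, was listed at 0 in CL5, FL2 and FL12 and at 0.08, 0.03 and 0.11 FPKM in CL6, CL7 and FL5, too low to be tested. The call of Vldlr was the only one of the list and was lost without CL5, CL7 or FL5, with a pseudocount of 1 and with quantile normalization, each of which left 0 genes called higher. At a mean of at least 1 FPKM Vldlr was not tested. Called lower were 4 genes without FL2 and 1 with median scaling.

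CD9 is a tetraspanin, a membrane organiser found on many cell types, the macrophages of scars among them. Cd9 (ENSRNOG00000019556, chromosome 4) read 0.87, 0.93 and 0.63 FPKM in rats CL5, CL6 and CL7, against 1.63, 2.60 and 3.88 in FL2, FL5 and FL12. The FL rats lay above the CL rats, with FL2 lowest and FL12 highest, as for Lpl. The means were 0.810 ± 0.159 and 2.70 ± 1.13 FPKM, and the log2 fold change was 1.56 (standard error 0.31, limma adjusted p = 0.0151). The call was lost without CL7 (adjusted p = 0.0616), without FL5 (0.0552) and with quantile normalization (0.0559), in a range of adjusted p from 0.00593 to 0.0616, and at a pseudocount of 1, where the log2 fold change was 0.99.

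Of 8 other tetraspanins and CD9 partners tested, 5 were called higher, beside 9.29% of all genes, and 0 lower (0 lower also at an unadjusted p under 0.05 in limma), with a median 0.93 above that of all genes. The largest called increase was that of Cd53, a tetraspanin of leukocytes, with a log2 fold change of 1.67, and the smallest that of Ptgfrn, an immunoglobulin superfamily protein that binds CD9, with 1.02. Cd81, a tetraspanin of many cells and by far the most abundant of the list, read 161, 169 and 179 FPKM in rats CL5, CL6 and CL7, against 150, 158 and 170 in FL2, FL5 and FL12. Its groups overlapped (log2 fold change -0.09, standard error 0.13, limma adjusted p = 0.644). The number called fell to 3 without CL5, CL7, FL5 or FL12, and to 2 with a pseudocount of 1 or with quantile normalization. The share of all genes called higher also fell below 9.29% in each of these settings. It was 4.95% without CL7, 5.06% without FL5, 3.11% with a pseudocount of 1 and 3.05% with quantile normalization.

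CD68 is a glycoprotein of macrophage lysosomes. Cd68 (ENSRNOG00000037563, chromosome 10) read 11.58, 12.40 and 11.22 FPKM in rats CL5, CL6 and CL7, against 35.80, 48.48 and 31.81 in FL2, FL5 and FL12. The CL rats were close together and well below each FL rat. The means were 11.7 ± 0.605 and 38.7 ± 8.70 FPKM, and the log2 fold change was 1.69 (standard error 0.16, limma adjusted p = 0.00172).

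Lysozyme, the bactericidal enzyme encoded by Lyz2, is made by monocytes, macrophages and neutrophils. Lyz2 (ENSRNOG00000005825, chromosome 7) read 2.71, 4.88 and 2.11 FPKM in rats CL5, CL6 and CL7, against 23.18, 26.25 and 33.98 in FL2, FL5 and FL12. The groups were far apart, and Lyz2 was the only member whose CL rats differed by a larger factor (highest over lowest, 2.31) than its FL rats (1.47). The means were 3.23 ± 1.46 and 27.8 ± 5.57 FPKM, and the log2 fold change was 3.13 (standard error 0.29, limma adjusted p = 0.00165). Lysozyme genes have close copies in rodents, and since only uniquely mapped reads were counted, reads shared with such a copy would be missing from these values.

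CSF1R is the receptor by which the growth factors CSF1 and IL34 keep macrophages alive. Csf1r (ENSRNOG00000018414, chromosome 18) read 8.93, 8.26 and 8.10 FPKM in rats CL5, CL6 and CL7, against 18.02, 22.45 and 15.76 in FL2, FL5 and FL12. The groups did not overlap, with FL5 again highest and FL12 lowest of the FL rats. The means were 8.43 ± 0.440 and 18.7 ± 3.40 FPKM, and the log2 fold change of 1.13 (standard error 0.15, limma adjusted p = 0.00439) was close to the limit of 2-fold. It fell to 0.91 with median scaling between rats, 0.93 with quantile normalization and 0.99 without FL5, each under 2-fold, with an adjusted p between 0.00334 and 0.0245 in all alternatives.

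AIF1 (also called IBA1) is an actin-binding protein of macrophages. Aif1 (ENSRNOG00000000853, chromosome 20) read 2.47, 2.22 and 2.02 FPKM in rats CL5, CL6 and CL7, against 5.44, 5.77 and 3.52 in FL2, FL5 and FL12. FL2 and FL5 were alike and FL12 was lower, though still above every CL rat. The means were 2.24 ± 0.225 and 4.91 ± 1.22 FPKM, and the log2 fold change was 1.07 (standard error 0.21, limma adjusted p = 0.0132). This call was the least stable of the 9. It was lost without CL7 (log2 fold change 1.01, adjusted p = 0.0566), without FL2 (0.98, adjusted p = 0.0270) and without FL5 (0.94, adjusted p = 0.0527), and with both scalings (0.86 and 0.71) and a pseudocount of 1 (0.85), in a range of adjusted p from 0.00979 to 0.0966.

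The ligands of CSF1R were listed with other myeloid growth factor receptors. Of these 6 genes, 3 were called higher, beside 9.29% of all genes, and 0 lower (0 lower also at an unadjusted p under 0.05 in limma). With quantile normalization 1 was called, beside 3.05% of all genes. The median lay 0.89 above that of all genes, and 0.54 with a pseudocount of 1. The 3 genes ran from Csf2rb (log2 fold change 1.36), a shared subunit of cytokine receptors, to Csf3r (1.72), the G-CSF receptor, which is also a neutrophil marker. Csf1 read 3.17, 3.14 and 3.62 FPKM in rats CL5, CL6 and CL7, against 7.44, 5.99 and 6.76 in FL2, FL5 and FL12. The groups were well separated, but the log2 fold change of 0.9995 (standard error 0.14, limma adjusted p = 0.00493) fell just short of 2-fold on this scale. Il34 overlapped between the groups, with 0.650 ± 0.0954 and 0.860 ± 0.139 FPKM (log2 fold change 0.35, standard error 0.24, limma adjusted p = 0.316).

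MSR1 is a scavenger receptor that takes up modified lipoproteins. Msr1 (ENSRNOG00000012779, chromosome 16) read 7.30, 5.84 and 6.11 FPKM in rats CL5, CL6 and CL7, against 8.72, 9.26 and 6.79 in FL2, FL5 and FL12. FL2 and FL5 lay above the CL rats, whereas FL12 lay below CL5. The means were 6.42 ± 0.777 and 8.26 ± 1.30 FPKM. The log2 fold change of 0.35 (standard error 0.16, limma adjusted p = 0.151) was close to the median of all genes, and its 95% confidence interval ran from -0.01 to 0.72. With median scaling the log2 fold change of Msr1 was 0.13 and the median of all genes 0.08. With quantile normalization these were 0.08 and -0.04. Of 11 other scavenger receptors tested, 4 were called higher, beside 9.29% of all genes, and 0 lower (0 lower also at an unadjusted p under 0.05 in limma). Their median lay 0.69 above that of all genes, a distance that was 0.43 with a pseudocount of 1, 1.19 with 0.01 and 0.36 at a mean of at least 1 FPKM. The largest called increase was that of Scara5, a ferritin receptor, with a log2 fold change of 2.46 from 0.10 ± 0.0458 to 1.09 ± 0.615 FPKM. The smallest was that of Colec12, a scavenger receptor with a collectin domain, with 1.84.

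**Figure D2:**
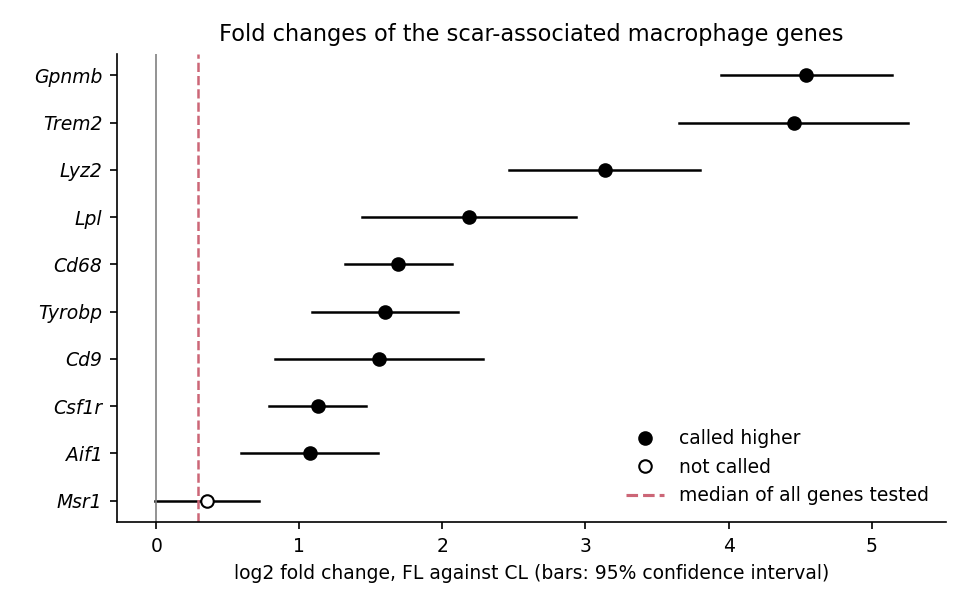
Log2 fold changes of the 10 members (FL against CL, on log2(FPKM + 0.1)) with limma's 95% confidence intervals, beside the median of all genes tested at 0.29. Gpnmb (4.54) and Trem2 (4.46) stand apart from the members that mark macrophages in general, such as Csf1r (1.13) and Aif1 (1.07), and the interval of Msr1 includes 0.

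The order of the levels changed between the groups. By mean FPKM in the CL group, Tyrobp, Cd68, Csf1r and Msr1 were the most abundant members, followed by Gpnmb, Lyz2, Lpl, Aif1, Cd9 and Trem2. The values of Tyrobp and Cd68 overlapped there, as did those of Gpnmb and Lyz2 and of Lyz2 and Lpl, and all other neighbours were separate. In the FL group Gpnmb came first and was separate from Tyrobp, and then came Cd68, Lyz2, Csf1r, Lpl, Msr1, Aif1, Trem2 and Cd9. Neighbours with separate values in the FL group were Gpnmb and Tyrobp, Lyz2 and Csf1r, and Msr1 and Aif1, while the others overlapped. Trem2 moved from above 4.28% of the genes tested in the CL group to above 56.3% of them in the FL group. Its CL mean of 0.0833 FPKM was below the filter of 0.1 FPKM, so Trem2 was tested only through its FL values. The same holds for every gene below it in the CL group. Its low rank there was thus partly set by the filter, and no conclusion is drawn from this move. Summed over the 10 members, FPKM was 51.96, 57.29 and 49.58 in CL5, CL6 and CL7, and 207.19, 328.00 and 247.90 in FL2, FL5 and FL12. Of these sums, Gpnmb alone made up 4.25, 3.65 and 4.11 in the CL rats and 64.72, 144.20 and 92.90 in the FL rats.

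Members were then read against Csf1r, Cd68 and Aif1, which mark macrophages in general, by taking each member's log2(FPKM + 0.1) minus the mean of these 3 genes in the same rat. Such a difference asks whether a member moved by more or by less than the general genes of the same liver. Gpnmb stood at -0.57, -0.73 and -0.47 in CL5, CL6 and CL7 and at 2.08, 2.96 and 2.93 in FL2, FL5 and FL12, an increase of 3.25. Trem2 stood at -5.34, -4.82 and -5.10 in the CL rats and at -2.68, -1.78 and -1.33 in the FL rats, an increase of 3.16 that was 1.01 with a pseudocount of 1, where that of Lyz2 was 1.63, and 4.12 with 0.01. Lyz2 stood at -1.20, -0.32 and -1.40 in the CL rats and at 0.60, 0.50 and 1.48 in the FL rats, an increase of 1.84. For these genes the FL rats lay above the CL rats on this scale as well. The size of such a difference depends on the genes taken off, and other choices were not tested. Log2 fold changes were 1.13 for Csf1r, 1.69 for Cd68 and 1.07 for Aif1. Those of the general macrophage genes outside the members ran from -0.70 (Cd14, not called) to 2.19 (Itgam). Lpl was also higher in each FL rat, at -0.89, -1.07 and -0.91 in the CL rats and -0.80, -0.42 and 1.01 in the FL rats, but much of its difference of 0.89 came from FL12, without which it was 0.35. Msr1 went the other way, from 0.19, -0.07 and 0.09 in the CL rats to -0.80, -0.99 and -0.83 in the FL rats, a difference of -0.94. Each of these 5 differences had an exact two-sided permutation p of 0.1, the smallest that 3 rats against 3 allow, and 0.14 after Benjamini-Hochberg adjustment over the 7 members compared. Tyrobp (0.30, exact permutation p = 0.3, adjusted 0.35) and Cd9 (0.26, exact permutation p = 0.9, adjusted 0.9) overlapped between the groups. Without FL12 the difference of Cd9 was -0.19. That of Tyrobp was 0.12 without CL5 and 0.47 without CL6, and only CL6, at 1.38, reached into the FL values of Tyrobp.

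**Figure D3:**
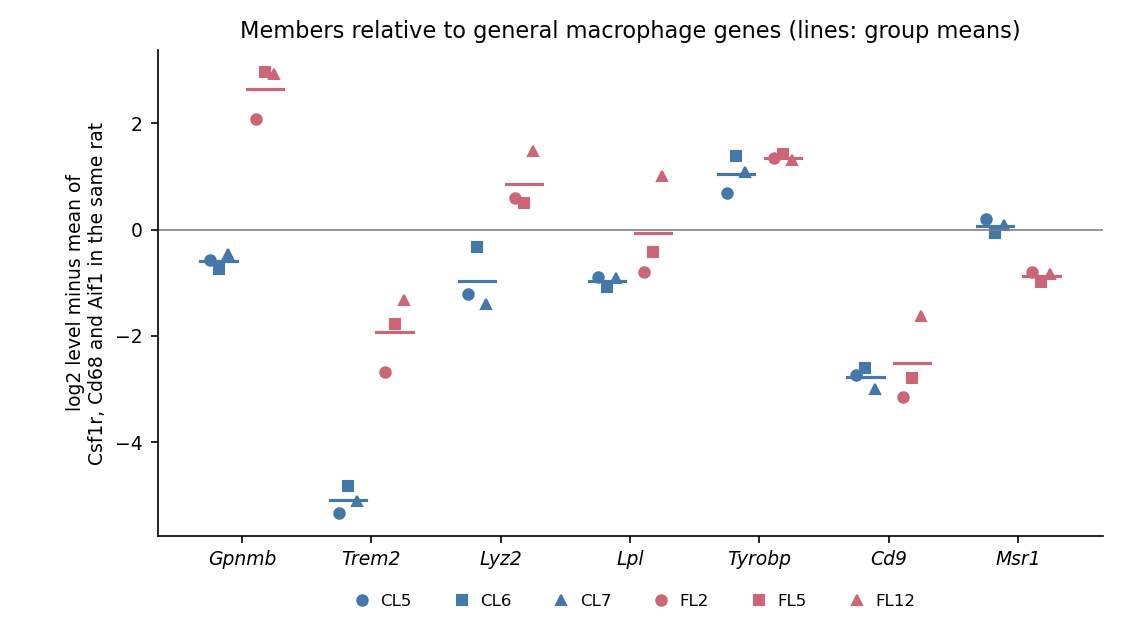
Log2(FPKM + 0.1) of 7 members minus the mean of Csf1r, Cd68 and Aif1 in the same rat, for the 3 CL rats (blue) and the 3 FL rats (red), with a line at each group mean. Gpnmb, Trem2, Lyz2 and Lpl lie higher in all FL rats, Msr1 lies lower in all of them, and Tyrobp and Cd9 overlap.

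Within the FL group the members differed in which rat was lowest and which highest. Trem2, Gpnmb, Cd9, Lpl and Lyz2 were lowest in FL2, whereas Tyrobp, Cd68, Aif1, Csf1r and Msr1 were lowest in FL12, and no member was lowest in FL5. Cd9, Lpl and Lyz2 were highest in FL12 and the other 7 members in FL5. Over all genes tested, the lowest FL rat was FL2 for 53.8%, FL5 for 21.4% and FL12 for 24.8%. The 5 of 10 members lowest in FL2 are thus near the share of all genes. The 5 of 10 lowest in FL12 lie above that share and the 0 of 10 lowest in FL5 below it, differences that were not tested. The 7 stellate cell and myofibroblast markers and the 6 cycling cell markers were all lowest in FL2, while 9 of 11 Kupffer cell genes and 10 of 15 general macrophage genes were lowest in FL12. Of 19 other scar- or lipid-associated genes, 12 were lowest in FL2, 3 in FL5 and 4 in FL12. Of the 6 CSF1R ligands and related receptors, 0 were lowest in FL2, 3 in FL5 and 3 in FL12. Between members, profiles over the 6 rats were compared by the root mean square distance of log2(FPKM + 0.1) centred on each gene's mean. The closest pairs were Aif1 and Csf1r (0.13), Tyrobp and Cd68 (0.17), and Trem2 and Gpnmb (0.27), and the most distant pair was Gpnmb and Msr1 (2.12).

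Companion genes of the same macrophages and their relatives were read from further lists, which were also chosen with earlier results of these data known. Over all 10 lists around the members' roles, 112 genes were listed, 109 found and 104 tested, of which 44 were called higher, beside 9.29% of all genes, and 0 lower, beside 0.935%, with 5 lower at an unadjusted p under 0.05 in limma. Of 19 other genes known from scar-associated and lipid-associated macrophages, 12 were called higher and 0 lower (0 lower also at an unadjusted p under 0.05), with a median 1.29 above that of all genes. Mmp12, the macrophage metalloelastase, read 0.02, 0.19 and 0.13 FPKM in rats CL5, CL6 and CL7, against 4.02, 24.52 and 12.82 in FL2, FL5 and FL12. Spp1, which encodes osteopontin, read 0.37, 2.81 and 0.74 FPKM in CL rats, against 7.34, 60.59 and 31.12 in FL rats. Both were lowest in FL2 and highest in FL5 among the FL rats, as were Trem2 and Gpnmb. This order is not particular to such genes, since Col1a1 shared it and FL2 was the lowest FL rat for 53.8% of all genes tested. Their log2 fold changes were 5.77 (standard error 0.62, limma adjusted p = 0.00257) and 4.53 (standard error 0.85, limma adjusted p = 0.0119). The smallest called increase of the list was that of Ctsd, the lysosomal protease cathepsin D, with a log2 fold change of 1.19. Of the 19 genes, 17 lay above the median of all genes. Lipa (0.05) and Plin2 (0.09), named after their values were seen, lay below it.

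Of 15 general macrophage genes outside the members, 8 were called higher, beside 9.29% of all genes, and 0 lower (0 lower also at an unadjusted p under 0.05 in limma), with a median 1.07 above that of all genes. They ran from Fcgr1a (log2 fold change 1.36), an Fc receptor, to Itgam (2.19), the integrin CD11b, which rose from 0.343 ± 0.10 to 1.89 ± 0.221 FPKM. Of 8 monocyte genes tested, 5 were called higher, beside 9.29% of all genes, and 0 lower (0 lower also at an unadjusted p under 0.05). Their median lay 1.09 above that of all genes, and 0.38 with a pseudocount of 1. The called genes ran from Plac8 (1.10) to Cx3cr1 (1.99), the fractalkine receptor. The count of monocyte genes was not steady, with 2 called without CL7, without FL5 or with quantile normalization, 1 with a pseudocount of 1, and 3 without FL2, without FL12 or with median scaling. The share of all genes called higher also fell without CL7 (4.95%), without FL5 (5.06%) and without FL12. It was 3.05% with quantile normalization, 3.11% with a pseudocount of 1 and 5.56% with median scaling. Without FL2 that share rose to 12.3%, while the monocyte count fell. Of 11 Kupffer cell identity genes, 2 were called higher, beside 9.29% of all genes, and 0 lower (0 lower also at an unadjusted p under 0.05), and the median lay 0.38 above that of all genes, with 0.19 without FL2, 0.25 without FL5 and 0.76 without FL12. These were the scavenger receptor gene Marco, with 8.74, 14.10 and 12 FPKM in rats CL5, CL6 and CL7, against 79.01, 43.88 and 31.46 in FL2, FL5 and FL12 (a log2 fold change of 2.06, standard error 0.32, limma adjusted p = 0.0069), and the folate receptor gene Folr2 (log2 fold change 1.60). Without FL12, 6 Kupffer cell genes were called higher. Clec4f, a lectin gene used as a marker of rodent Kupffer cells and named after its values were seen, read 49.90, 43.18 and 48.37 FPKM in CL rats, against 66.59, 57.44 and 26.27 in FL rats. Its groups overlapped, with FL12 below every CL rat and FL2 and FL5 above them.

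**Figure D4:**
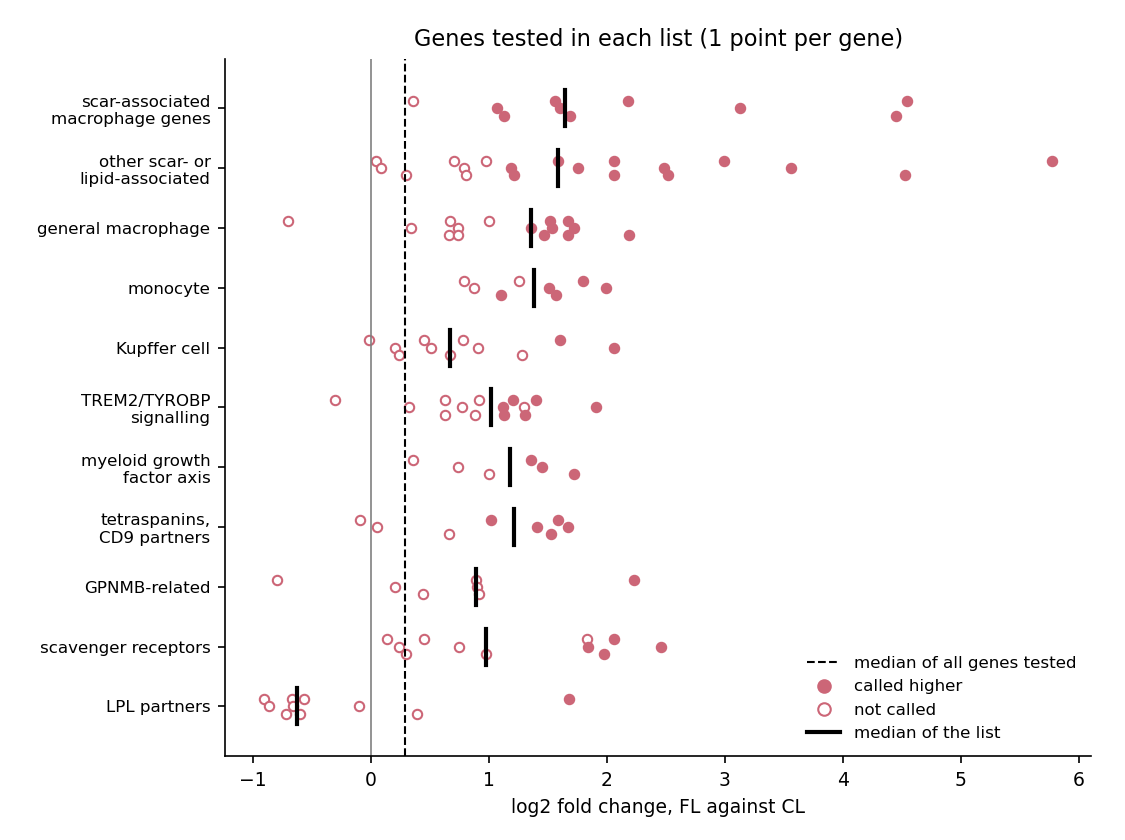
Log2 fold change (FL against CL) of each gene tested in the list of members and the 10 companion lists, 1 point per gene, filled where called higher, with the median of each list and that of all genes tested at 0.29; the small vertical offsets only separate points. The medians of the members (1.65) and of the other scar- or lipid-associated genes (1.58) are the highest of the 11 lists plotted, which leave out the markers of other cells, and that of the LPL partners (-0.63) is the lowest. Among the lists left out, the stellate cell (1.69) and neutrophil markers (1.72) have higher medians than the members.

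Markers of other cells of the liver were read beside these genes, and their part in the result was not tested. The counts of calls stand beside the 9.29% of all genes called higher, and in lists this small a single call is near that share. Of 7 stellate cell and myofibroblast markers, 4 were called higher, and their summed FPKM was 79.32, 83.56 and 77.27 in CL5, CL6 and CL7 and 193.45, 528.68 and 479.42 in FL2, FL5 and FL12, with Col3a1 the most abundant. Neutrophil markers, which matter for Lyz2, gave 3 called higher of 5 tested and 8 listed. Their sums were low in every rat, at 0.47, 1.06 and 1.24 FPKM in the CL rats and 4.95, 2.27 and 4.83 FPKM in the FL rats. S100a8 was the most abundant of them, the granule genes Mpo and Elane were listed at 0 in each CL rat, and Camp was listed at 0 in each FL rat. Cycling cell markers gave 2 called higher of 6, with sums of 2.49, 4.71 and 3.02 FPKM in the CL rats and 4.18, 19.53 and 16.60 FPKM in the FL rats, and Mki67 the most abundant. Without FL2 all 6 of them were called, 1 was without CL6, and 0 were without CL5, CL7, FL5 or FL12. Platelet markers gave 1 called higher (Pf4) of 2 tested, with sums of 4.10, 2.61 and 2.85 FPKM in the CL rats and 5.0, 6.66 and 7.58 FPKM in the FL rats, and Itga2b the most abundant. Endothelial markers gave 1 called higher (Vwf) of 5, with sums of 65.82, 64.28 and 58.26 FPKM in the CL rats and 79.13, 65.19 and 75.32 FPKM in the FL rats, and Kdr the most abundant. When a rat was left out, the platelet list had 1 call each time, the neutrophil list had 1, and the endothelial list had 1 without FL2 and 0 otherwise. The neutrophil calls also fell to 1 with a pseudocount of 1, without the filter, with median scaling and in limma without the trend, and to 0 with quantile normalization, and at a mean of at least 1 FPKM only 1 of these genes was tested and called. The endothelial call was lost with a pseudocount of 1, with both scalings and without the trend, and the cycling cell list had 0 calls with quantile normalization.

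The remaining marker lists held no gene called in either direction with limma, though 1 cholangiocyte and 1 dendritic cell marker were called higher without FL2. Hepatocyte markers (6 tested, Alb the most abundant) summed to 44915, 42471 and 42985 FPKM in rats CL5, CL6 and CL7, and to 33656, 35723 and 35148 FPKM in FL2, FL5 and FL12, with 1 higher at an unadjusted p under 0.05. The list's median log2 fold change minus that of all genes was -0.46, with -0.25 without FL12 and 0.43 with quantile normalization. Cholangiocyte markers (5 tested, Epcam the most abundant) summed to 5.39, 7.75 and 5.58 FPKM in the CL rats and 5.38, 8.06 and 11.36 FPKM in the FL rats, with 1 higher at an unadjusted p under 0.05. T and B cell markers (3 tested, Cd3g the most abundant) summed to 0.45, 0.76 and 0.84 FPKM in the CL rats and 1.72, 2.05 and 1.19 FPKM in the FL rats, with 1 higher at an unadjusted p under 0.05. Dendritic cell markers (6 tested, Zbtb46 the most abundant) summed to 2.23, 1.59 and 1.89 FPKM in the CL rats and 2.73, 2.71 and 2.75 FPKM in the FL rats, with 2 higher at an unadjusted p under 0.05. Natural killer cell markers (4 tested, Prf1 the most abundant) summed to 1.62, 1.51 and 2.13 FPKM in the CL rats and 2.12, 1.99 and 1.67 FPKM in the FL rats, and adipocyte markers (2 tested, Cidec the most abundant) to 11.19, 13.86 and 12.11 FPKM and 17.06, 14.26 and 12.42 FPKM, with 0 at an unadjusted p under 0.05 in both lists.

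Genes whose profile over the 6 rats was closest to that of a member were sought among 10525 other genes averaging 1 FPKM or more, by the same distance. Closest to Trem2 were LOC100361492 (0.20), Pla2g7 (0.34), Col1a1 (0.46), Dbp (0.50) and Per3 (0.51). Closest to Gpnmb were LOC100361492 (0.35), Pla2g7 (0.38), Lilrb4 (0.53), Per3 (0.54) and Dbp (0.54). The distance includes the difference between the groups, so genes with a large change of similar size lie close. The log2 fold changes of Col1a1, Dbp and Per3 were 4.24, 5.13 and 3.89, and Col1a1 is one of the stellate cell and myofibroblast markers. No cell of origin is read from such closeness. Pla2g7, which encodes the acetylhydrolase of platelet-activating factor, read 0.18, 0.22 and 0.14 FPKM in rats CL5, CL6 and CL7, against 2.97, 5.32 and 4.08 in FL2, FL5 and FL12. LOC100361492 read 0.14, 0.16 and 0.09 FPKM in CL rats, against 2.69, 7.0 and 7.73 in FL rats. The table describes it as a cytochrome P450 of the Cyp2c family, whose copies are similar enough that its reads are uncertain. Closest to the median profile of the 10 members were Fam105a (0.10), Tbxas1 (0.11), Slc7a7 (0.12), Trpm4 (0.12) and Cotl1 (0.12). Tbxas1 encodes thromboxane A synthase and Cotl1 an actin-binding protein.

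Promoter windows from RefSeq (assembly GRCr8, 250 bases before to 50 after the gene start) were held for 6 of the 10 members, namely Gpnmb, Trem2, Lyz2, Cd9, Cd68 and Csf1r, and Tyrobp, Lpl, Aif1 and Msr1 are only named. Motifs were searched on both strands and were chosen with the values known. The core GAGGAA of the myeloid factor PU.1 occurred in 6 of the 6 windows, against 27.6% of 33469 windows of the assembly. The AP-1 motif TGANTCA occurred in the windows of Gpnmb, Trem2 and Cd68, against 7.33% of all windows, and the E-box CATGTG, which MiT/TFE factors bind, in those of Gpnmb, Cd9 and Cd68, against 14%. The E-box CACGTG occurred in 0 of the 6, against 6.42%. A match describes the letters only, and no binding was measured. The windows of the 3 members with the largest fold changes are shown, 5′ to 3′ on the strand of the gene, with these motifs in capitals on whichever strand they were found. That of Gpnmb lies at chr4:79340878-79341177 on the plus strand, that of Trem2 at chr9:20151730-20152029 on the minus strand and that of Lyz2 at chr7:54797962-54798261 on the minus strand.
Gpnmb: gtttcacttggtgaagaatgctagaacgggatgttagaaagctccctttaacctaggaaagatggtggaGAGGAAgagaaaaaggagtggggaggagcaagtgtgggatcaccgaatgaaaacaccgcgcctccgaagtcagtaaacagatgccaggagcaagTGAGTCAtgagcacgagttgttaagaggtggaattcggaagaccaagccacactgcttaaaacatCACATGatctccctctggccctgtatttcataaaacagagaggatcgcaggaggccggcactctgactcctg
Trem2: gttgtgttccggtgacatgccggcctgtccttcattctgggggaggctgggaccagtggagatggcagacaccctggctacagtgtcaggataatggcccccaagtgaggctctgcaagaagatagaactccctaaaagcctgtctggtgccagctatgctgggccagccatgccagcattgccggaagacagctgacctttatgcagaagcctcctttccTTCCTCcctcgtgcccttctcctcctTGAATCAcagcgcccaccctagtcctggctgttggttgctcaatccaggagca
Lyz2: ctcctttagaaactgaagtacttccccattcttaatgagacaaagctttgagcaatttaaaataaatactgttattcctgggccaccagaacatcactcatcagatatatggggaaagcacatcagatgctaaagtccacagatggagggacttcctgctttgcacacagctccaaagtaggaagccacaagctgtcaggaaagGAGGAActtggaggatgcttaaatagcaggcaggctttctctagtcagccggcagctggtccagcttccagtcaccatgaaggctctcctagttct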

How the data were processed

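The authors removed ribosomal RNA, cleaned the reads with FASTX-Toolkit, mapped them with TopHat2 and deposited FPKM of uniquely mapped reads with 2 decimals. The methods name GRCH38 although gene identifiers are rat Ensembl ones, and no annotation release is given in the sources used here. The authors' own calls came from edgeR on counts, which were not used here. Rats were grouped by their labels, and 2 further columns of values were not used, because no sample carries their names. Between 0.932% and 2.71% of the genes above 0 had identical values in a pair of rats, so no library was treated as a duplicate.

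FPKM are not counts, so log2(FPKM + 0.1) was compared with limma 3.58.1 in R 4.3.3, with a variance trend and Benjamini-Hochberg adjustment over the 14864 genes whose mean reached 0.1 FPKM. Genes were called from a 2-fold change at an adjusted p under 0.05, the study's limits. Fold changes on this scale understate those of genes with low FPKM. Members relative to Csf1r, Cd68 and Aif1 were compared by an exact permutation test. Of each companion list, the text names the called genes with the largest and the smallest change and related genes (Syk, Hcst, Apoe, Csf1, Il34, Spp1, Gpihbp1, Angptl4, Mitf and Cd81), of each list of cell markers the most abundant gene, single calls and genes at 0, and in addition the 5 genes with the nearest profiles. The members and lists were chosen with earlier results of these data known. The limma fit was tested on simulated data. The alternatives were pseudocounts of 1 and 0.01, no filter or a higher one (1 FPKM), median scaling over 9201 genes, quantile normalization, limma with a robust prior or without the trend, calls with any fold change, and leaving out each rat. Slc40a1, Ly6c, Angptl8, Pecam1, Lep and Retn of the lists were not analysed here. Figures and sequences were prepared with Python 3.11.15, numpy 2.4.6, pandas 2.3.3 and matplotlib 3.10.9.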

Additional observations from a re-analysis of the deposited data

How the results depend on the processing

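All 10 members kept a positive log2 fold change under the 15 alternatives. Changes of the filter, the prior, the trend or the limit on the fold change leave the log2 fold change itself as it was. Without that limit, no call can be lost. Of 150 comparisons of a member's call with the one reported, 137 stayed and 13 were lost, all of them of Cd9, Aif1 and Csf1r, and Msr1 was never called. The number of members called was 7 with a pseudocount of 1, 7 with median scaling, 6 with quantile normalization, between 6 (without FL5) and 9 when a rat was left out, and 9 otherwise. Of the companion genes, 28 were called higher with a pseudocount of 1 and 28 with quantile normalization, against 44, and 35 to 45 when a rat was left out. None was called lower except 2 with median scaling, 4 without a limit on the fold change and between 0 and 4 (without FL2) when a rat was left out. The list of TREM2 and TYROBP signalling, with 6 called, had 2 with a pseudocount of 1, 3 with median scaling, 1 with quantile normalization and 11 without a limit on the fold change. The monocyte genes, with 5 called, had 1, 3, 2 and 5 in the same settings and 2 of 3 tested at a mean of at least 1 FPKM, and the tetraspanins and partners, with 5 called, had 2, 4, 2 and 5. Of all genes, 3.11% were called higher with a pseudocount of 1 and 5.56% with median scaling. The share was 3.05% with quantile normalization and 16.9% without a limit on the fold change. The genes of the CSF1R ligands and related receptors, with 3 called, had 2 with a pseudocount of 1 and 1 with quantile normalization. With any fold change allowed, the LPL list had 3 genes called lower, and the GPNMB list had 1 called lower and 3 higher, against 0 and 1. With median scaling 1 gene of each of these lists was called lower. The cycling cell markers, with 2 called, had 1 with a pseudocount of 1, without the filter, with median scaling, with a robust prior and without the trend, and the endothelial markers had 2 called without a limit on the fold change, against 1. Relative to Csf1r, Cd68 and Aif1, Trem2 differed by 1.01 with a pseudocount of 1 and by 4.12 with 0.01, against 3.16. Cd9 differed by -0.18 with a pseudocount of 1, against 0.26, and by -0.19 (without FL12) to 0.57 (without FL2) when a rat was left out. Apart from the limit on the fold change, the cause of the other differences was not tested.

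Over all genes, 1381 were called higher and 139 lower, against 462 and 72 with a pseudocount of 1, 854 and 94 at a mean of at least 1 FPKM, 824 and 180 with median scaling, 453 and 231 with quantile normalization, and 2518 and 288 without a limit on the fold change. Leaving out a rat gave between 740 (without CL7) and 1831 (without FL2) higher and between 81 (without CL6 or CL7) and 160 (without FL2) lower. The median log2 fold change of all genes was 0.08 with median scaling and -0.04 with quantile normalization, and that of the members lay 1.35 and 1.54 above it. No paired analysis was possible because the groups share only 1 number. Values near 0.1 FPKM, such as those of Trem2 in the CL rats, rest on few fragments, and the depth of a library was read only relative to CL5.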
